A study of Mus musculus with 3 samples.

Results

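The genes that build caveolae and reseal torn plasma membrane were examined in cultured mouse myoblasts, the proliferating progenitors of skeletal muscle. The set held 10 of the 35562 genes with listed transcripts, listed by name: the caveolins Cav1, Cav2 and Cav3, the cavins Cavin1, Cavin2 and Cavin3, the ferlins Dysf and Myof, the tripartite motif gene Trim72 and the annexin gene Anxa2. Bulk polyadenylated RNA came from 3 lines of such cells, called 66, 67 and 72, with 1 library each, from cells that the study had purified by flow sorting. All 3 lines carried the same genotype, Dmdmdx; Pax7-nGFP, and the same treatment, CRISPR/Cas9 editing of the mdx mutation of the dystrophin gene. They were derived from chimeric mice made by injecting edited induced pluripotent stem cells into mouse blastocysts, so every line shared the mdx background, the edit, the reprogramming history and the nuclear GFP reporter under Pax7 control.

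The labels give neither the age of the chimeras, nor whether a chimera received tamoxifen to ablate host satellite cells, nor whether the 3 lines came from separate animals. With a single condition, no unedited or healthy line was compared here, and the spread given below is that between these lines, which may be partly technical. Library totals were 73274315, 66972426 and 70272367 estimated counts for lines 66, 67 and 72, and 3 counts, the limit that a count of 0 allows, equalled 0.0409, 0.0448 and 0.0427 counts per 1000000 (CPM). Such limits and the counting intervals below cover counting error only, since reads without molecular identifiers are not independent molecules.

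Caveolae are flask-shaped pits of the plasma membrane that flatten when the membrane is stretched and so hold membrane in reserve. Caveolins are inserted in the inner leaflet, cavins coat the pit from the cytoplasm, and both are needed for a stable caveola. When a muscle fibre tears, calcium entry brings ferlins, annexins and TRIM72 (also called MG53) to the wound, where vesicles and membrane are drawn together into a patch, and loss of caveolin 3, cavin 1 or dysferlin causes muscle disease in people.

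The cells carried a myoblast transcriptome. All 7 myoblast markers (Pax7, Myf5, Myod1, Des, Itga7, Cdh15 and Chrna1) were at 10 transcripts per 1000000 (TPM) or more in every line, with a summed level of 2492, 2438 and 2337 TPM in lines 66, 67 and 72. Endothelial cells and adipocytes, both rich in caveolae, left little trace: the 6 endothelial markers summed to between 7.39 and 9.998 TPM, most of it Egfl7, and Pecam1 was at 0.466, 0.276 and 0.526 TPM, while the 5 adipocyte markers summed to at most 0.191 TPM. The endothelial marker Emcn and the adipocyte markers Adipoq, Lep and Cidec had at most 2 counts in any line. None of 5 immune markers reached 10 TPM, and Adgre1 and Cd3e had at most 2 counts. Of 6 fibroblast markers Col3a1 alone did, at 145, 205 and 270 TPM, and Lum and Dpt were listed at 0. Of 5 smooth muscle and pericyte markers Acta2 and Rgs5 passed 10 TPM. Both were over 2-fold apart between lines, Acta2 at 209, 292 and 581 TPM and Rgs5 at 356, 137 and 172 TPM. Cspg4, next in level, was under 10 TPM but also unlike between lines. It had 358, 2082 and 582 counts, or 0.813, 5.24 and 1.33 TPM. Myh11, which defines mature smooth muscle, had at most 13 counts.

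All 10 members were detected in all 3 lines. Anxa2 stood highest at 1390 ± 102 TPM (SD, n = 3), and Cavin3 stood lowest at 9.20 ± 2.74 TPM. Anxa2 was above 99.6% of the 25510 detected genes, meaning those above 0 TPM in at least 1 line. Far fewer genes reached 1 TPM, at 12497, 12403 and 12548 in lines 66, 67 and 72. The median level of the members was 5.63 on the log2(TPM + 1) scale, beside 0.88 over all detected genes. Cavin3, Dysf, Cav3 and Cav2 formed the low end, between 9.20 and 19.6 TPM on average, and Cavin1, Myof, Cavin2 and Cav1 lay between 127 and 181 TPM.

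**Figure D1:**
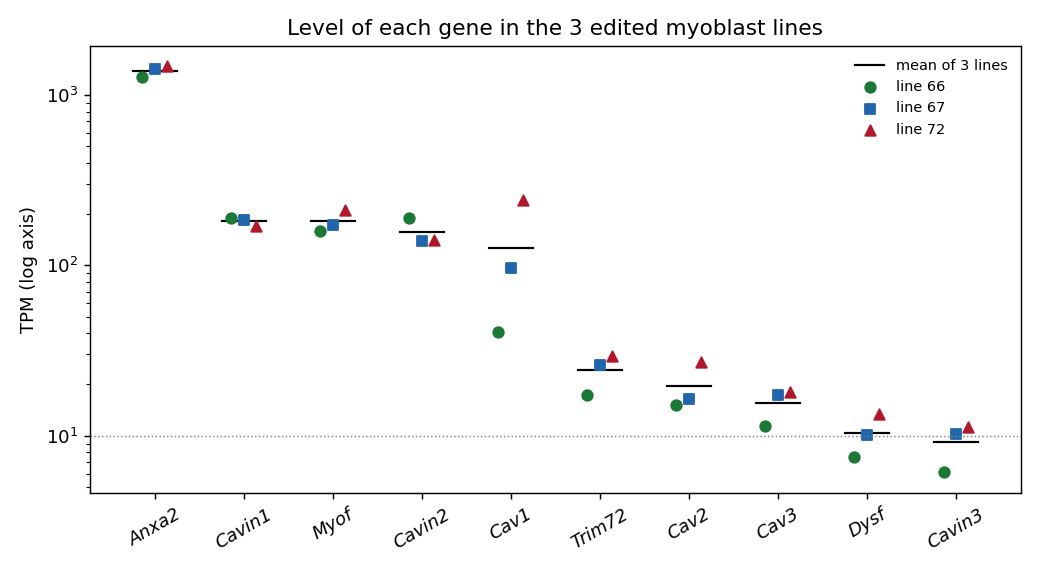
TPM of each of the 10 members in each line, on a log axis, with 1 point per line, a bar at the mean and a dotted line at 10 TPM. Cav1 spans 40.8 TPM (line 66) to 242 TPM (line 72), the widest fold range of any member, whereas the points of Cavin1 and Anxa2 nearly coincide.

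Ranked by mean log2(TPM + 1), the order was Anxa2, Cavin1, Myof, Cavin2, Cav1, Trim72, Cav2, Cav3, Dysf and Cavin3. Of the 9 neighbouring pairs, 4 kept their order in every line: Anxa2 over Cavin1 by 2.93 ± 0.19 on the log2 scale (SD, n = 3), Cav1 over Trim72 by 2.02 ± 0.92, Trim72 over Cav2 by 0.31 ± 0.28, and Cav3 over Dysf by 0.56 ± 0.15. The other 5 pairs changed places between lines. Per length, Cavin1, Myof, Cavin2 and Cav1 thus could not be ordered among themselves, nor Cav2 against Cav3, nor Dysf against Cavin3. An exact two-sided sign-flip test over 3 lines cannot give less than p = 0.25, which those 4 pairs reached (Benjamini-Hochberg adjusted p = 0.5625 over the 9 pairs).

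Cav1 differed more between lines than any other member. It encodes the main structural caveolin of most tissues outside striated muscle and lies on chromosome 6 (chr6:17306335-17341452, plus strand, GRCm38). It was at 40.8 TPM in line 66, 97.0 TPM in line 67 and 242 TPM in line 72, from 3717, 6736 and 17345 estimated counts. Line 72 thus stood well above the others and line 66 well below, and no line was near another. In TPM, line 67 was 2.38-fold and line 72 was 5.93-fold above line 66, and line 72 was 2.49-fold above line 67. In bulk RNA, fewer cells with the transcript and less transcript per cell cannot be told apart.

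The size of the Cav1 difference depended in part on short transcript models. Transcripts of under 500 bases took 0.825, 2.50 and 2.70% of the Cav1 counts in lines 66, 67 and 72 but 7.28, 21.0 and 22.7% of its TPM, because TPM divides by length. In CPM, which does not, line 72 was 4.87-fold above line 66 (95% counting interval 4.70 to 5.04) and 2.45-fold above line 67 (2.39 to 2.52), and line 67 was 1.98-fold above line 66 (1.90 to 2.06). With counts scaled by trimmed mean of M values (TMM) the same 3 ratios were 4.72, 2.39 and 1.97. The rank of the lines was thus the same on each scale, and line 67 against line 66 fell just short of 2-fold on the count scales.

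Cav2, which encodes the partner that needs caveolin 1 to reach the cell surface, begins 25.2 kb upstream of Cav1 on the same strand (chr6:17281185-17289115). It was at 15.1, 16.5 and 27.1 TPM, so that line 72 was 1.80-fold above line 66 while lines 66 and 67 were close. Cav3 encodes the striated muscle caveolin and lies elsewhere on chromosome 6 (chr6:112459505-112472872, plus strand). It was at 11.4, 17.2 and 18.1 TPM, with line 66 below lines 67 and 72, which were close to each other. By TMM-scaled counts the order of lines 67 and 72 turned for Cav3, at a ratio of 0.99.

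The promoters of the caveolins are shown because Cav1 differed most between lines, its reads fell on more than 1 start, and Cav2 and Cav3 complete its family. Each window holds the 250 bases before an annotated start in RefSeq (GRCm38.p6), plus strand, 5′ to 3′. Capitals mark matches on either strand to the letters CAGCTG (an E-box of the kind bound by MyoD family factors), TATAAA (known as the TATA box), GGGCGG (the GC box of Sp1 family factors) or CATTCC (the motif of TEAD factors). No matches overlapped.
Cav1 first start, chr6:17306085-17306334: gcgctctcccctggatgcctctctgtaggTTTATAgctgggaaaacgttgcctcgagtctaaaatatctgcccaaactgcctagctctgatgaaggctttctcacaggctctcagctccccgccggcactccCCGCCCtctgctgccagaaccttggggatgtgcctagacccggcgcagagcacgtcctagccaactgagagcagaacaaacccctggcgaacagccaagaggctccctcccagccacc
Cav1 second start, chr6:17307390-17307639: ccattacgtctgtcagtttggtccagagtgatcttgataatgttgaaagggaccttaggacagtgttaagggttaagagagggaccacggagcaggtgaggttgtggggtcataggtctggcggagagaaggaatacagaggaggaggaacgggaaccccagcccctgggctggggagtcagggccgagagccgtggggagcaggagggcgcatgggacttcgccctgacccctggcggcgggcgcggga
Cav2, chr6:17280935-17281184: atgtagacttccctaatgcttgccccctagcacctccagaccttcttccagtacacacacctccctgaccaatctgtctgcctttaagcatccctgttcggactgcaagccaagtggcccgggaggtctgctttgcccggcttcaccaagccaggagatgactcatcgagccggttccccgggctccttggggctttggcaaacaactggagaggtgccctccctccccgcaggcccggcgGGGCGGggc
Cav3, chr6:112459255-112459504: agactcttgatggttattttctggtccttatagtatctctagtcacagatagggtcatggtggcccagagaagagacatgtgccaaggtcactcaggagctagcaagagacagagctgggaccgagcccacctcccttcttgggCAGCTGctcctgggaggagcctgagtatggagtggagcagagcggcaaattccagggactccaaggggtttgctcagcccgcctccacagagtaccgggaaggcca

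The first Cav1 window held a TATA box and a GC box, both read on the minus strand, and 10 CG dinucleotides, while the second held none of the 4 motifs and 12 CG. Cav2 had a GC box and 10 CG, and Cav3 had an E-box and 4 CG. Over all 32851 RefSeq promoter windows of the same length, 13.0% held the E-box letters, 12.4% the TATA box, 32.7% the GC box and 12.6% the TEAD motif, and the median was 6 CG. A match is a string of letters and not a bound site. Of the 10 members, 9 had a RefSeq window, and Cavin3 did not.

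Both Cav1 starts were used in every line, and both were higher in line 72 than in line 66. The 6 transcripts that begin at the first start (17306335 to 17306423) had 2570, 4790 and 13462 counts in lines 66, 67 and 72, or 69.1, 71.1 and 77.6% of the gene. The 2 transcripts of the second start (17307640 and 17307723) had 1147, 1922 and 3859 counts, or 30.9, 28.5 and 22.2%. In CPM the first start was 5.46-fold and the second start 3.51-fold higher in line 72 than in line 66. In TPM the same folds were 5.87 and 5.74, and the first start took 73.4, 69.2 and 72.7% of the TPM. Summed over all models, the shift between starts was thus seen in counts and not in TPM. Both sums include short models, such as the 345-base Cav1-208 of the second start. It was at 0.519, 7.25 and 27.1 TPM from 4.13, 52.5 and 202 counts. The main transcripts were at 24.7, 49.5 and 137 TPM (Cav1-201) and at 10.3, 18.7 and 35.3 TPM (Cav1-202). Per length, Cav1-202 alone thus rose less from line 66 to line 72 than Cav1-201. The first start's main transcript, Cav1-201, codes for 178 amino acids, and Cav1-202 of the second start codes for 147, the shorter beta form that lacks the N-terminal end. These counts split reads shared by overlapping transcripts, and the uncertainty of that split is not given in the tables.

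**Figure D2:**
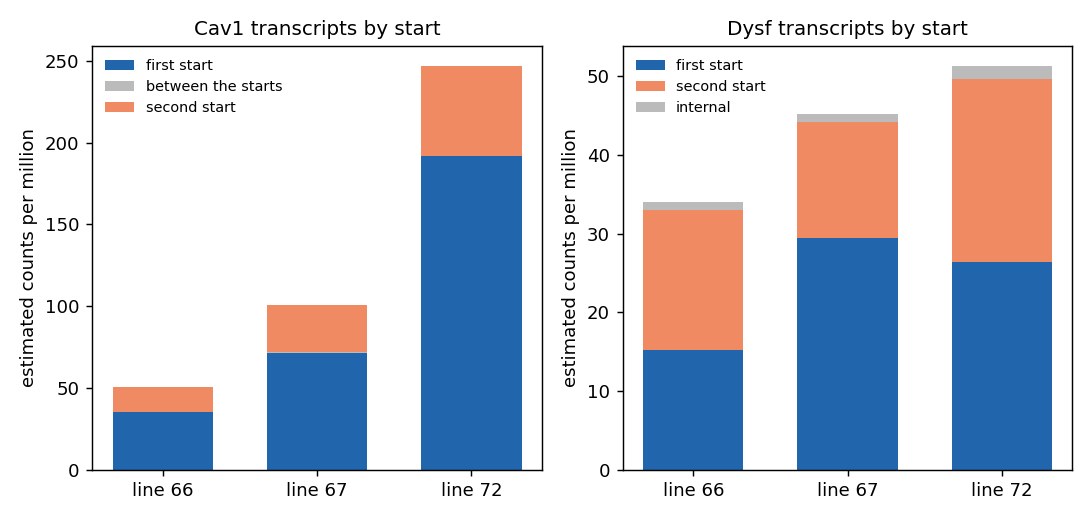
CPM of the transcripts grouped by start, for Cav1 (left) and Dysf (right, on its own axis), stacked in 1 bar per line from 0. Both Cav1 segments are smallest in line 66 and largest in line 72, whereas for Dysf the first start is larger in lines 67 and 72 and the second in line 66, where it takes 52.4% of counts.

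Genes next to Cav1 were read within a window of 500 kb on either side that was chosen after the values were seen. Besides Cav1 and Cav2, 4 genes there averaged 10 TPM or more. Tes was at 124, 82.2 and 108 TPM, and Capza2 at 234, 280 and 292 TPM. Met, the receptor of hepatocyte growth factor, was at 75.7, 68.4 and 111 TPM, 1.46-fold higher in line 72 than in line 66 and 1.62-fold higher than in line 67, and St7 was at 16.7, 14.5 and 16.6 TPM. Over 398 genes of chromosome 6, the median log2 excess of 1 line over the average of the remaining lines, less the median of that excess over all 8428 genes, was -0.11, -0.05 and 0.15 for lines 66, 67 and 72, beside -1.83, -0.03 and 1.86 for Cav1 centred in the same way. What part a shift of the chromosome or of this stretch has in the Cav1 levels was not tested.

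**Figure D3:**
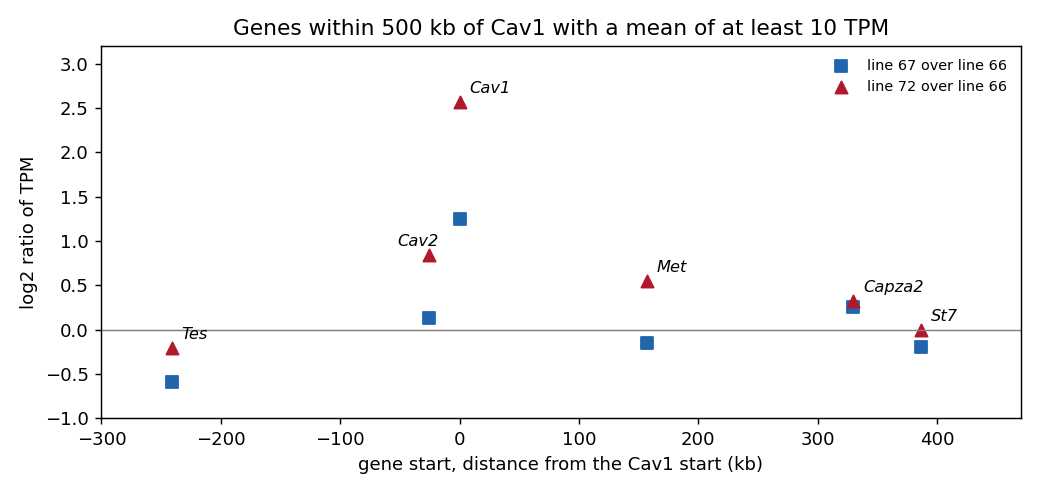
Log2 ratio of TPM of line 67 (squares) and line 72 (triangles) over line 66 for the 6 genes averaging 10 TPM or more near Cav1, against the distance in kb of each gene start from the Cav1 start. Cav1 lies at 1.25 and 2.57, above every neighbour, and the line at 0 marks no difference.

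Cavins differed less than Cav1. Cavin1, whose product trimerizes and is required for any caveola to form, lies on the minus strand of chromosome 11 (chr11:100956733-100970887). It was at 189, 186 and 169 TPM in lines 66, 67 and 72, or 181 ± 10.7 TPM, from 35322, 32380 and 30216 counts. The lines lay within 1.12-fold of each other. Over 699 genes of chromosome 11 this centred median excess was 0.32 in line 66 and -0.18 and -0.13 in lines 67 and 72, beside 0.15, 0.06 and -0.21 for Cavin1. What part this shift of the chromosome has in the Cavin1 levels was not tested.

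Cavin2, which helps bend the caveolar membrane, was the one member clearly highest in line 66 (chr1:51289126-51302960, plus strand). It was at 191, 138 and 140 TPM, 1.38-fold apart, with lines 67 and 72 nearly equal. Cavin3, a protein kinase C delta binding cavin on chromosome 7 (chr7:105480083-105482300, minus strand), was at 6.09, 10.3 and 11.2 TPM from 486, 756 and 838 counts. Of its 31-base words, the unit by which the quantifier assigns reads, 78.9% were its own, the rest being shared with the opposite-strand gene Gm45667, which had at most 2 counts.

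Within both families the mix differed between lines, while the Cavin1 share hardly did. Cav1 made up 60.6, 74.2 and 84.3% of the summed caveolin TPM in lines 66, 67 and 72 (73.0 ± 11.9%, SD, n = 3), Cav2 made up 22.4, 12.6 and 9.45%, and Cav3 made up 16.9, 13.2 and 6.30%. The sum itself was 67.3, 131 and 287 TPM. With Cavin4, a muscle cavin outside the 10 members, the cavins summed to 458, 471 and 418 TPM, of which Cavin1 made up 41.4, 39.4 and 40.5% (40.4 ± 0.959%). Cavin2 made up 41.7, 29.4 and 33.6% and Cavin4 15.6, 29.0 and 23.2%. Cavin4 itself was at 71.4, 136 and 96.8 TPM, more than Cavin3 in every line.

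Per length, the ratio of Cavin1 to Cav1 differed in direction between lines. Cavin1 was 4.64-fold above Cav1 in line 66 and 1.91-fold in line 67, and in line 72 the ratio was 0.699, with Cav1 on top. Transcripts of under 500 bases held 22.7% of the Cav1 TPM in line 72, so the size of that ratio depended in part on short models. In CPM, Cavin1 was above Cav1 in every line, at 482, 483 and 430 against 50.7, 101 and 247 CPM. On the log2(TPM + 1) scale the difference was 0.87 ± 1.35, smaller than its spread (exact sign-flip p = 0.5, adjusted p = 0.5 over 8 fixed pairs), and in CPM it was 2.09 (exact p = 0.25). Cav1 exceeded Cav2 by 2.32 ± 0.88 and Cav3 by 2.62 ± 0.97, and Cavin1 exceeded Cavin3 by 4.20 ± 0.49, each in 3 of 3 lines (exact p = 0.25, the smallest possible, adjusted p = 0.333). Cavin1 and Cavin2 were not separated per length, at 0.22 ± 0.22, whereas in CPM Cavin1 was above Cavin2 in every line, by 0.87 on the log2 scale.

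**Figure D4:**
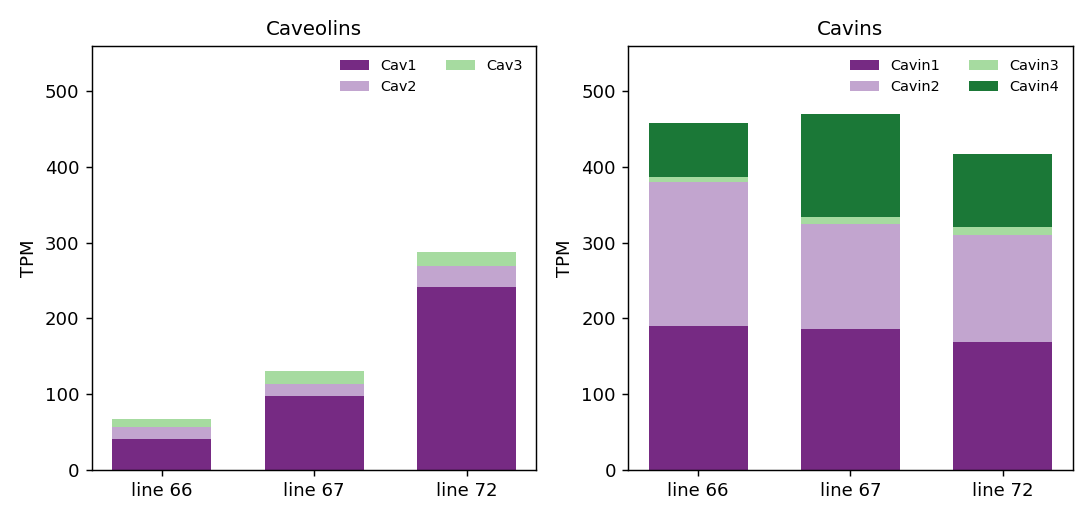
TPM of the caveolins (left) and cavins (right), stacked by gene, with 1 bar per line from 0 and the same axis in both panels. The caveolin bars reach 67.3, 131 and 287 TPM in lines 66, 67 and 72, mostly through Cav1, while the cavin bars lie between 418 and 471 TPM with Cavin1 near the same height in each.

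The ferlins are calcium-binding membrane proteins with many C2 domains. Myof encodes myoferlin, which acts in myoblast fusion and is abundant in myoblasts, and Dysf encodes dysferlin, the resealing factor of mature fibres. Myof (chr19:37899036-38043577, minus strand) was at 159, 173 and 211 TPM, and Dysf (chr6:84008590-84211060, plus strand) was at 7.47, 10.1 and 13.4 TPM. Both were lowest in line 66 and highest in line 72, with Dysf 1.79-fold and Myof 1.32-fold apart. Myof was 21.3-fold, 17.0-fold and 15.8-fold above Dysf, and it made up 94.7 ± 0.762% of the pair. The log2 difference of Dysf from Myof was -4.03 ± 0.19, of the same sign in 3 of 3 lines (exact p = 0.25, adjusted p = 0.333).

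Dysf reads fell on more than 1 start as well. The 6 transcripts of the first start had 1117, 1968 and 1858 of the 2489, 3027 and 3603 Dysf counts, and the 6 of the second start had 1304, 991 and 1630, or 52.4, 32.7 and 45.2%. By these estimates the first start led in lines 67 and 72 and the second in line 66. Such totals rest on a split of reads shared by overlapping transcripts. Single transcripts were less steady, with Dysf-201 at 825, 101 and 212 counts and Dysf-202 at 78.1, 880 and 866 counts. The error of that split is not given, so which start led in a line remains uncertain. Transcripts that begin inside the gene held 2.74, 2.25 and 3.21% of the Dysf counts but 8.999, 11.3 and 22.3% of its TPM, the share in line 72 being the largest.

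Trim72 encodes the oxidation-sensing ligase TRIM72, which nucleates the repair patch in striated muscle (chr7:128003949-128011033, plus strand). It was at 17.3, 26.0 and 29.3 TPM, with line 66 below the other lines, which were close. Its level was above that of Dysf in every line, by a ratio of 2.32, 2.56 and 2.19 in TPM, and the log2 difference of Dysf from Trim72 was -1.15 ± 0.11 (exact p = 0.25, adjusted p = 0.333). Per library rather than per length the order turned, since Dysf transcripts are far longer and drew 2489, 3027 and 3603 counts against 1940, 2696 and 3038. Of the 31-base words of Trim72, 74.7% were its own, and the overlapping opposite-strand gene Gm15533 had between 3.05 and 8.05 counts.

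Anxa2 encodes annexin A2, which binds phospholipid and actin in the presence of calcium and joins S100a10 in a tetramer (chr9:69453620-69491795, plus strand). It was at 1277, 1417 and 1477 TPM, 1.16-fold apart, from 57579, 56920 and 60204 counts. The lines were thus close at the highest level of the set. Anxa2 exceeded Myof, the next member that acts in resealing, by 2.94 ± 0.12 on the log2 scale, in 3 of 3 lines (exact p = 0.25, adjusted p = 0.333). In CPM, which favours the far longer Myof transcripts, this difference was small, with Myof minus Anxa2 at -0.25. S100a10 was at 723, 909 and 869 TPM, a ratio to Anxa2 of 0.566, 0.642 and 0.589. That ratio depended on the transcript models summed. The longest coding form, Anxa2-201, held 55.8, 51.7 and 50.3% of the Anxa2 TPM, at 713, 732 and 743 TPM. Most of the rest lay on the shorter Anxa2-202 and Anxa2-204. S100a10 was above Anxa2-201 alone in every line.

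Differences between pairs of lines were read against all 8428 genes averaging 10 TPM or more, of which 9 were members, Cavin3 falling just below. With 1 library a line there is no test of such a difference. Over 2-fold apart in at least 1 pair were 2.47% of these genes, and Cav1 alone among the 9 members. Over 2-fold apart in each of the 3 pairs were 0.166%, or 14 genes, and Cav1 was among them in TPM. On the count scales it was not, since line 67 over line 66 was 1.98 in CPM and 1.97 with TMM or DESeq2 factors. At 1.5-fold in at least 1 pair the background was 9.79%, and 5 of 9 members were past it (Cav1, Cav2, Cav3, Dysf and Trim72), while in every pair the background was 0.534% and Cav1 alone passed. By pair, Cav1 and Cav3 were past 1.5-fold between lines 67 and 66 (5.65% of all genes), those 5 members between 72 and 66 (5.7%), and Cav1 and Cav2 between 72 and 67 (3.61%). Trim72 was just short of the limit between lines 67 and 66 in TPM and passed it on the count scales (1.52 in CPM, 1.51 with TMM or DESeq2 factors). Dysf fell short of 1.5-fold in every pair with TMM (1.47 for line 72 over line 66) and DESeq2 factors, and its TPM ratio of 1.79 was 1.53 over coding transcripts.

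For the 2-fold limit, 1.36% of all genes were over 2-fold apart between lines 67 and 66, 1.47% between 72 and 66, and 1.09% between 72 and 67, and Cav1 was the member called in each in TPM, the first of these calls being lost on the count scales. Line 66 was the lowest line for 7 of the 9 members (Cav1, Cav2, Cav3, Dysf, Myof, Trim72 and Anxa2), and for 47.7% of all genes. Levels ran in the order 66, 67, 72 for the same 7 members and for 29.4% of all genes. The second count depended on scaling, since TMM-scaled counts gave 5 members (Cav1, Cav2, Dysf, Myof and Trim72) beside 17.6% of genes and DESeq2 size factors gave the same 5 beside 18.4%. Line 66 was again lowest for those 7 members on both, beside 39.6% and 40.2% of genes. Cavin1 and Cavin2 were the members not lowest in line 66 on any of these scales. Cav1, Cav2, Cav3 and Dysf share chromosome 6, whose centred median excess was -0.11, -0.05 and 0.15 in lines 66, 67 and 72. Centred in the same way, Cav2 was at -0.41, -0.27 and 0.68, Cav3 at -0.53, 0.25 and 0.28, and Dysf at -0.52, 0.02 and 0.50. What part the chromosome has in their order was not tested.

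The SD of log2(TPM + 1) over the 3 lines gave the same contrast among members. Its median was 0.34 over the 9 members compared and 0.12 over all 8428 genes. Cav1, at 1.27, was above 99.7% of these genes, rank 26 from the top, and above 99.95% of the 2052 genes within 2-fold of its mean level. Cav2 was above 96.3%, Dysf 94.8%, Trim72 94.7% and Cav3 93.2%, followed by Cavin2 at 87.0% and Myof at 78.5%. The place of Dysf depended on the scale, its SD being 0.38 in TPM, 0.28 over coding transcripts and 0.28 with TMM factors. For Cavin2 the same values were 0.26, 0.26 and 0.29. Anxa2 at 43.1% and Cavin1 at 31.3% lay below the middle of all genes, although Anxa2 was above 63.6% of the 165 genes within 2-fold of its own level.

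**Figure D5:**
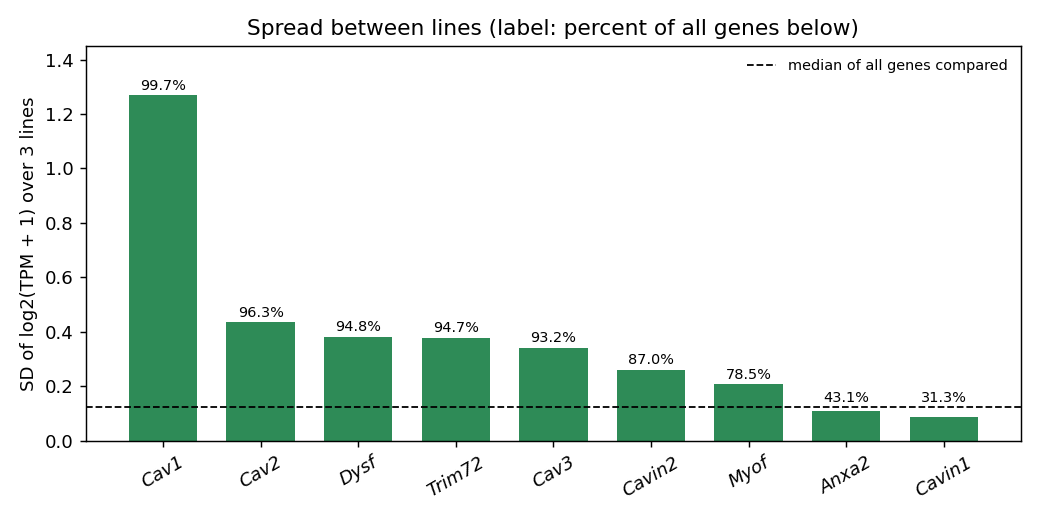
SD over the 3 lines of log2(TPM + 1) for the 9 members averaging 10 TPM or more, as bars from 0, with the share of all genes that have a smaller SD printed above each bar and the median of all genes as a dashed line. Cav1 reaches 1.27 and only Cavin1 and Anxa2 fall below the median of 0.12.

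Differentiation markers mostly had the same order of lines as most members. Of 7 such markers 6 were at 10 TPM or more in every line, 5 of these stood in the order 66, 67, 72 from low to high in TPM (29.4% of all genes, and 1 of 7 myoblast markers), and their summed level was 1015, 1503 and 1782 TPM. Myogenin (Myog), the factor that starts terminal differentiation, was at 168, 222 and 310 TPM, and Mymx, which encodes a fusion peptide, was at 11.5, 18.3 and 27.4 TPM. Tnnt3, fast skeletal troponin T, was the one compared marker outside that order, at 208, 402 and 389 TPM. Acta1, skeletal actin, was at 350, 486 and 588 TPM and Myh3, embryonic myosin, at 204, 262 and 339 TPM. Their part in the order of Cav3, Dysf, Trim72 and the other members was not tested. Nor was that of Acta2 and of the fibroblast marker Col3a1, whose levels given above had the same order in these sorted cells.

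Other genes of caveolae and repair were mostly present. Of 56 genes in 7 related lists, 41 were at 10 TPM or more in every line, against 31.5% of all detected genes, and none of the genes compared was over 2-fold apart in any pair, beside the 2.47% of all genes that were. Cavin4 came nearest, with line 67 at 1.91-fold the level of line 66. Among other coat and neck genes 6 of 8 reached that level, led by Ehd4 at 134 ± 12.0 TPM (SD, n = 3) and Pacsin2 at 103, 117 and 143 TPM, which shape and restrain the caveolar neck. Flot1 and Flot2, which form flotillin domains apart from caveolae, were both present, Flot1 at 27.5, 32.3 and 33.2 TPM and Flot2 at 40.2, 38.4 and 38.3 TPM. The other ferlins were low: none of 4 reached 10 TPM and 3 were under 1 TPM in every line, and Otof, the ferlin of hair cell synapses, had 0 counts in every line.

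Among other annexins 7 of 11 were at 10 TPM or more in every line. Anxa1 was at 509, 633 and 703 TPM, Anxa6 at 571, 508 and 543 TPM and Anxa5 at 248, 292 and 308 TPM, all calcium-dependent proteins that gather at wounds and all below Anxa2, whereas Anxa10 had at most 2 counts. Of 10 annexin and dysferlin partners 9 passed, led by the small calcium-binding proteins S100a6 at 4007, 2664 and 3630 TPM and S100a11 at 1753, 1583 and 1755 TPM. Of 15 vesicle fusion and ESCRT genes, the latter pinching off damaged membrane, 13 passed, led by Tsg101 at 197, 220 and 204 TPM, Pdcd6ip (ALIX) at 143, 136 and 143 TPM and Chmp4b at 132 ± 8.69 TPM (SD, n = 3). Of 6 genes that shape transverse tubules, 4 passed, and Bin1 led at 370, 493 and 558 TPM.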

How the data were processed

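RNA from 3 myoblast lines was poly-A enriched and made into stranded libraries. The submitters' processing notes name bcl2fastq 2.20, fastp 0.20, kallisto 0.46.1 and the build GRCm39. The annotation release and the strand setting are not given in the sources used here. The authors deposited, per transcript and library, estimated counts and TPM, the latter normalized by effective length and library total. Of 121798 transcripts, 120686 were matched by ID to GENCODE M21 (GRCm38), from which gene names and positions come, and the 1112 unmatched held 0.493 to 0.535% of counts. Estimated counts and TPM were summed per gene.

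Genes averaging 10 TPM or more were compared between pairs of lines as ratios of TPM without a pseudocount, and averages and SDs used log2(TPM + 1). Called means over 2-fold apart, since 1 library a line allows no test. Differences between members were tested by an exact two-sided sign-flip test over lines with Benjamini-Hochberg adjustment. Summed counts were not rounded before scaling. TMM factors (edgeR 4.0.16) and size factors (DESeq2 1.42.0) served only as alternative scalings, beside CPM, other thresholds, protein-coding transcripts and leaving out each line. The ratio with a pseudocount of 1 and the use of coding transcripts for calls were chosen after seeing the data. Counts of no 2 lines agreed within sampling noise (chi-square per degree of freedom 53.1 to 87.6 over genes). The calling of ratios was tested on simulated data. Analyses ran in Python 3.11.15 and R 4.3.3. Members and lists were chosen with earlier results of these data known. Named were all members and, from each other list, at most the 3 genes of highest mean TPM, any compared gene over 2-fold apart, and genes with at most 3 counts in every line. The myoblast list was named whole, without single values. Chromosome 6 neighbours, Myog, Myh11, Capn3 and Syt7 were added after values were seen. Sequences are from RefSeq.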

Additional observations from a re-analysis of the deposited data

How the results depend on the processing

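No paired analysis was possible because all 3 lines belong to 1 group. With CPM in place of TPM, 8 neighbouring pairs of members kept their order in every line instead of 4, the Cavin1 share of cavins was 54.9% instead of 40.4%, and the log2 difference of Dysf from Trim72 reversed from -1.15 to 0.25, since CPM does not divide by transcript length. A limit of 1.5-fold called 5 members instead of 1, and 825 genes instead of 208. Genes averaging 1 TPM or more gave 901 over 2-fold apart, and no filter gave 5501. Leaving out a line leaves 1 pair of lines and gave 92 to 124 genes. TMM factors gave 197 genes and size factors 198. Cav1 alone was over 2-fold apart among the members in every setting but the 1.5-fold limit. The median level of the members was 5.24 to 5.98 without 1 line, beside 5.63 with all. Of the single values, 138 kept their call or moved by less than the spread, 11 moved by more and 1 reversed. Depth does not limit the members, each of which had at least 486 counts in every line, but 1 library a line limits every comparison between lines.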

Other observations

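The ferlin gene Fer1l6, outside the set and of little known function, was low but unlike between lines, with 387, 94.0 and 140 estimated counts in lines 66, 67 and 72, or 1.83, 0.451 and 0.702 TPM. It was too low to be among the genes compared. The calpain gene Capn3, whose loss causes a limb-girdle muscular dystrophy, was the one partner of the annexins and dysferlin under 10 TPM, at 1.98, 3.73 and 4.01 TPM. Syt7, a calcium sensor of lysosome exocytosis, was at 4.10, 4.78 and 2.17 TPM. Capn3 and Syt7 were picked after their values were seen.

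Dysf was the only member without 1 transcript that held most of its counts in every line. Cavin1-201 held 99.79, 99.84 and 99.96% of Cavin1 counts in lines 66, 67 and 72. Myof-211 held 63.3, 61.0 and 64.3% of Myof counts in lines 66, 67 and 72, and Anxa2-201 held 76.5, 73.3 and 72.2% of Anxa2 counts. All Trim72 counts were placed on Trim72-202 and none on Trim72-201, and both code for 477 amino acids.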
